A study of Mus musculus with 3 samples.

Results

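The mRNAs of the proteasome, the protease that degrades ubiquitin-tagged proteins, were examined for cytosines that resisted bisulfite. Members were the genes whose symbol begins with Psma, Psmb, Psmc, Psmd, Psme, Psmf or Psmg. This gave 50 of 13313 genes, or 54 of 15021 transcripts. Of these, 48 encode subunits, activators, an inhibitor or assembly factors of the proteasome. Psmc3ip, a cofactor of meiotic recombination, and Psme3ip1, which binds the activator encoded by Psme3, matched by name only and are kept apart where roles are compared. Psme2b had no listed cytosine. Nearly all cytosines of the proteasome mRNAs were converted, at a level close to that of the other mRNAs. Candidate sites were found at 3 of 9831 tested cytosines, in Psmc4, Psmc6 and Psmb2. As a role, the constitutive beta subunits were read most deeply. By mean coverage per listed cytosine the inducible subunits Psmb8 and Psmb9 were lowest, although Psmd10 lay below Psmb9 in replicates 2 and 3. This order depends on the measure. By mean share of library coverage, Psmb8 had 0.000243% and Psmb9 0.000359%. Psmb11 (6.08e-05%), Psme2 (6.85e-05%) and Psmd10 (0.000117%) were below both, and Psmf1 (0.000254%) was below Psmb9. Psmb11 and Psme2 had only 11 and 13 listed cytosines, against 144 in Psmb8 and 150 in Psmb9.

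The 3 libraries were made from polyadenylated RNA of mouse embryonic stem cells of genotype Tet1-/-,Tet2-/-,Tet3-/- on the J1 background, which lack the enzymes that oxidise 5-methylcytosine. They form 1 group. Wild-type cells were not analysed here: every comparison is between cytosines, transcripts or genes of the same libraries, and none bears on the effect of the knockout. The cells had been grown on embryonic fibroblast feeders in serum medium with leukaemia inhibitory factor (ESGRO), and the feeders were removed by letting them attach to dishes before harvest. Nothing in the labels says that the samples came from separate cultures, so the spread between them, and p-values that rest on it, may be technical.

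The proteasome core particle, called 20S, is a stack of rings made of alpha subunits (Psma genes) and beta subunits (Psmb genes). The beta subunits encoded by Psmb6, Psmb7 and Psmb5 carry the active sites. In cells exposed to interferon they are replaced by those encoded by Psmb9, Psmb10 and Psmb8, which form the immunoproteasome and favour peptides suited to antigen presentation. Psmb11 encodes a thymic and Psma8 a testis form. The 19S cap recognises and unfolds substrates with a ring of ATPases (Psmc genes) and non-ATPase subunits (most Psmd genes). Other activators (Psme genes) can bind the core in its place, Psmf1 encodes an inhibitor, and Psmg1 to Psmg4, Psmd5, Psmd9 and Psmd10 encode chaperones of assembly. Bisulfite turns unmodified cytosine into uracil, read as T. An unconverted read can come from 5-methylcytosine, from 5-hydroxymethylcytosine or from a failed reaction, and the method does not separate these.

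Coverage, the number of reads at a cytosine, summed to 151362866, 142608298 and 139884444 in replicates 1, 2 and 3, with 1.53%, 1.45% and 1.41% of it unconverted. Cytosines with 10 or more reads in every library were testable. All 10 embryonic stem cell markers examined were listed and together took 0.519% ± 0.0117 of the coverage (SD, n = 3). They were read unevenly: Dppa5a alone took 0.208% on average. Esrrb and Nanog had no testable cytosine. Each had 28 listed cytosines, with at most 4 reads in Esrrb and 21 in Nanog. The other markers had between 144 (Dppa5a) and 1224 (Tfcp2l1) testable cytosines. Of 10 fibroblast markers 7 were listed, with 0.0331% to 0.0511% of the coverage, and Dcn, Lum and Postn had no listed cytosine. The part of feeder RNA in the values below was not tested.

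The transcript positions of the tables were set against RefSeq sequence of GRCm38.p6, a build other than that of the files, at the start of the transcripts. Of 46 member transcripts in that reference, 26 had at least 6 listed cytosines in their first 50 bases, and in 19 of them all listed positions fell on a C (199 positions). In 5 of these, Psma2, Psmb3, Psmb5, Psmd11 and Psmd12, every C of the stretch was listed. The following are shown because they let the starts of a core alpha and a core beta mRNA be read base by base, and because the 1 cytosine of these starts that passed the site test lies in Psmb5. In Psma2 (positions 1 to 30, chr13:14613242-14613271, plus strand) and Psmb3 (positions 1 to 30, chr11:97703434-97703463, plus strand) capitals mark the testable cytosines. In Psmb5 (positions 19 to 48, chr14:54617948-54617977, minus strand) the single capital marks the cytosine at position 33.
Psma2: gtgcgtggctgtgttCCgaCtttCCgggta
Psmb3: agagcCggtttgCaggCaaCgCtgtgggga
Psmb5: cgtgttgcagcggcCgatgccggtgaatca
The 5 marked cytosines of Psma2 had mean unconverted shares between 0% and 1.73%, and the 5 of Psmb3 between 0% and 1.48%. At Psmb5 position 33, 27 of 850, 17 of 810 and 18 of 789 reads were unconverted. This is 2.52% ± 0.577 (SD, n = 3), with an adjusted p of 0.0298 (exact binomial tests, described with the candidates). The other 7 testable cytosines of that stretch did not pass. Over 92 testable cytosines in the first 48 bases of 13 genes, those followed by G (CG) were unconverted at 1.22% ± 0.0892 (25 cytosines). The value was 0.990% ± 0.119 for CHG (31 cytosines) and 0.922% ± 0.0597 for CHH (36 cytosines), where H is A, C or T. Without Psmb5 position 33 the CG share was 1.01% ± 0.102, within 1 SD of the CHG share. Leaving out a cytosine chosen for a high share lowers the value by construction, so it does not show that the contexts agree. The 3 contexts also differed in mean coverage, at 232, 183 and 90.1 reads. None of the others among the 92 passed the site test.

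The proteasome mRNAs were among the better-read transcripts of these cells. Their level is given as the mean coverage per listed cytosine, which is not a mean over the whole transcript. Cytosines listed in no library do not enter, so a gene listed over a short stretch is averaged over that stretch only. A cytosine absent from 1 library counts as 0 there. In bulk RNA, fewer cells of a type and less RNA per cell cannot be told apart. The median level was 57.9 reads over the 50 members and 7.14 over all genes, and 45 members lay above the median of all genes. Together they held 0.733%, 0.748% and 0.754% of the coverage of the 3 libraries. At least 20 testable cytosines were present in 42 members (84.0%), against 55.8% of all genes. Psmb8, Psmb9, Psmb11, Psme2, Psmf1 and Psmd10 had no testable cytosine.

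**Figure D1:**
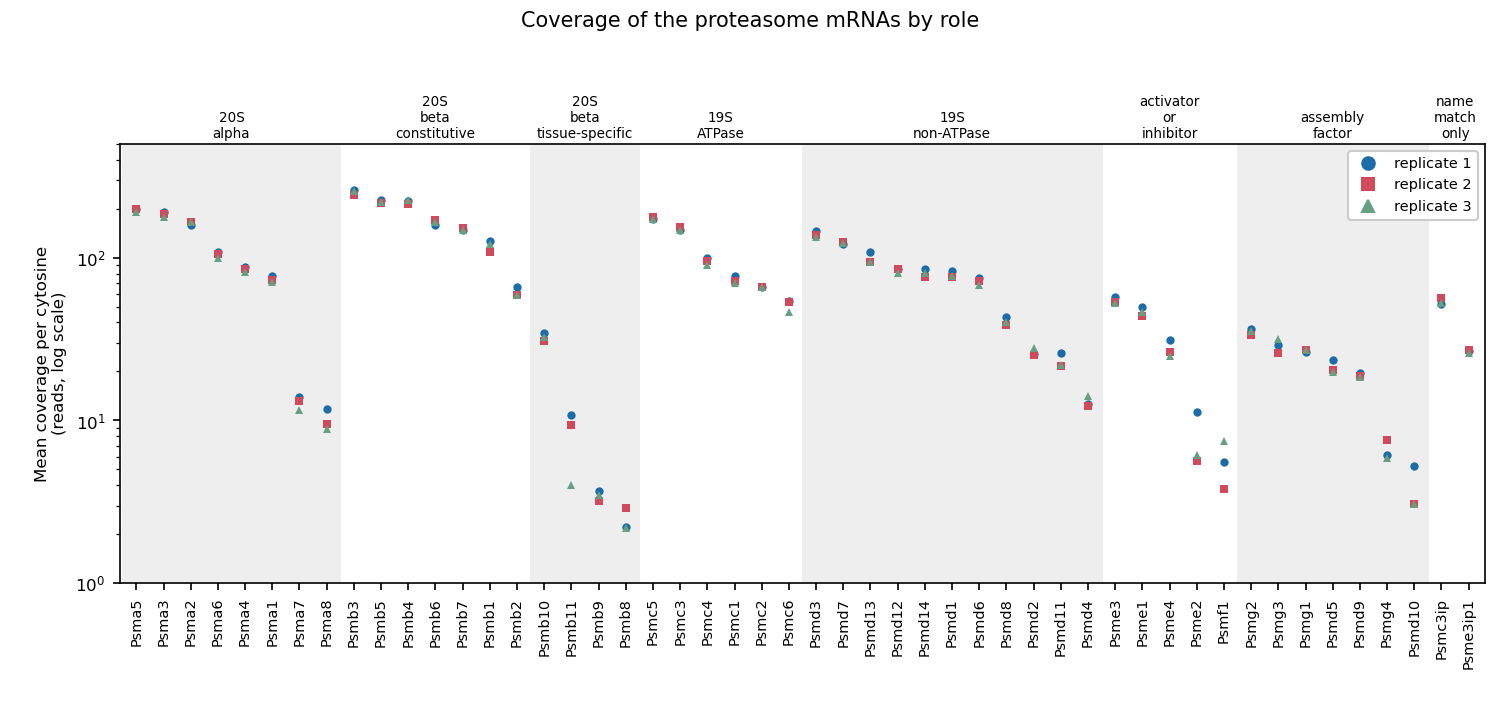
Mean coverage per listed cytosine (reads, log scale) of each of the 50 genes, grouped by role and ordered by level within a role; each symbol is 1 of the 3 libraries. The constitutive beta subunits lie between 61.3 reads (Psmb2) and 253 reads (Psmb3) on average, and Psmb8, Psmb9 and Psmd10 at the bottom.

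The 7 constitutive beta subunits had the highest level of any role, 172, 166 and 171 reads in replicates 1, 2 and 3. Psmb3, a structural subunit, was read most deeply, at 262, 241 and 257 reads (253 ± 10.5, SD, n = 3). Psmb5, the chymotrypsin-like active subunit, had 227, 217 and 221 reads. Psmb4, a structural subunit, had 225, 215 and 225 reads, so that these 2 did not differ beyond their spread. Psmb6, the caspase-like subunit, had 159, 171 and 166 reads, and Psmb7, the trypsin-like subunit, had 147, 153 and 148. The 3 active subunits were thus above most members in every library, in the order Psmb5, Psmb6, Psmb7. Psmb2, the lowest of the role, had 66.1, 58.7 and 59.0 reads, and the highest and lowest constitutive beta subunits were 4.13-fold apart.

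The inducible counterparts were all lower than the subunits they replace, in each library. Psmb8 had 2.21, 2.90 and 2.19 reads, Psmb9 had 3.70, 3.21 and 3.47, and Psmb10 had 34.3, 30.8 and 32.4. Psmb10 therefore stood apart from the other two, which overlapped neither with it nor with each other. The 8 antigen-presentation and interferon-responsive genes examined beside them were all listed and took 0.0171% to 0.0190% of the coverage. Of these the peptide transporter gene Tap1 had 1.79 ± 1.95 reads per listed cytosine, while the class I gene H2-K1 had 42.2 ± 4.03 (SD, n = 3). The Tap1 value rests on 8 listed cytosines with at most 4 reads, none of them listed in replicate 1. That of H2-K1 rests on 406 listed cytosines. Psmb11 had 10.8, 9.36 and 4.0 reads, but over 11 listed cytosines only, all between positions 2747 and 2792.

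The alpha subunits had 106, 104 and 101 reads as a role. Psma5 was highest, at 199, 198 and 192 reads. Psma8, the testis form, had 11.8, 9.47 and 8.90 reads and was lowest. Psma7, which Psma8 replaces in the testis, had 14, 13.1 and 11.6 reads, above Psma8 in each library, although the ranges of the 2 genes overlapped across libraries. Psma7 is 1 of 4 members, with Psmd4, Psmd10 and Psmg4, that have more than 1 listed transcript. Its 2 transcript models were listed over positions 84 to 282 and 193 to 791, and how the authors' counting treated reads common to both is not given in the sources used here. Low coverage of such a gene is no measure of low expression.

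The ATPases of the cap had 105, 105 and 100 reads, close to the alpha subunits. Psmc5 was highest, at 172, 178 and 174 reads, and Psmc6 lowest, at 54.1, 53.2 and 46.7 reads, a 3.4-fold range. The 11 non-ATPase subunits had 88.7, 83.3 and 82.1 reads and spanned a 10.7-fold range. Psmd3, a scaffold subunit of the lid, led with 147, 138 and 133 reads. Psmd4, a ubiquitin receptor, was lowest at 12.6, 12.3 and 14.1 reads, with 92 listed cytosines confined to positions 760 to 927 of its 2 models. Psmd2, the large scaffold of the base, was likewise listed only at 37 cytosines between positions 124 and 297.

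Activators and assembly factors were read less deeply. Psme3, the nuclear activator PA28 gamma, had 57.3, 53.4 and 52.9 reads. Psme1, of the interferon-responsive activator PA28, had 49.9, 44.0 and 46.7 reads. Psme4, the activator PA200, had 31.4, 26.3 and 24.7 reads. Psme2, the partner of Psme1, had 11.3, 5.62 and 6.15 reads over 13 listed cytosines, and the inhibitor Psmf1 had 5.57, 3.80 and 7.52. Among the assembly factors, Psmg2 was highest at 36.4, 33.7 and 35.5 reads and Psmd10 lowest at 5.22, 3.07 and 3.07. As roles, the activators and inhibitor stood at 36.2 ± 2.94 reads and the assembly factors at 23.1 ± 0.867 (SD, n = 3), both below the alpha subunits at 103 ± 2.62 in each library.

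Over their 9831 testable cytosines, the proteasome mRNAs were converted as well as the rest of the libraries. The unconverted share was 1.54%, 1.46% and 1.39% in replicates 1, 2 and 3, against 1.53%, 1.45% and 1.40% over all other testable cytosines. The difference was 0.00918, 0.0159 and -0.00845 percentage points, a mean of 0.00555 ± 0.0126 (SD, n = 3), and it changed sign between libraries. At 16.7% of the member cytosines no unconverted read was seen in any library, against 28.6% of all testable cytosines. The summed depth over the 3 libraries also differed, with a median of 182 reads in members and 91 in all. By role, the share ranged from 1.37% ± 0.0794 in the alpha subunits to 1.58% ± 0.0750 in the assembly factors and 1.65% ± 0.255 in the tissue-specific beta subunits, which rest on 128 cytosines of Psmb10.

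Candidate sites were few. For every cytosine, a one-sided exact binomial test per library asked whether more reads were unconverted than the library-wide share predicts. Fisher's method joined the 3 results, and the Benjamini-Hochberg adjustment ran over the 1639820 testable cytosines of the whole tables. These p-values treat reads as independent and hold no spread between samples. To be a candidate, a cytosine needed an adjusted p below 0.05, a mean share of 10% or more, and in every library a higher share than the library as a whole. By this rule 3 member cytosines were candidates, or 0.0305% (exact 95% interval, 0.00629% to 0.0892%), against 0.0473% of all testable cytosines. The interval of the members holds the background.

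The candidates lay in 2 ATPase mRNAs and 1 beta subunit mRNA, each at a low level. At position 1413 of Psmc4 (NM_011874.2), 3 of 26, 6 of 38 and 2 of 30 reads were unconverted. Its share was 11.5%, 15.8% and 6.67%, a mean of 11.3% ± 4.56 (SD, n = 3; adjusted p of the exact binomial tests, 0.000724), and no other cytosine was listed within 10 bases. At position 897 of Psmc6 (NM_025959.3), 1 of 24, 4 of 28 and 3 of 23 reads were unconverted. The mean was 10.5% ± 5.52 (SD, n = 3; adjusted p of the exact binomial tests, 0.0233), and the 5 cytosines listed within 10 bases were unconverted at 2.24%. At position 301 of Psmb2 (NM_011970.4), 7 of 50, 4 of 53 and 3 of 33 reads were unconverted. The mean was 10.2% ± 3.37 (SD, n = 3; adjusted p of the exact binomial tests, 0.000125), with 2.12% at the 4 cytosines within 10 bases. All 3 had fewer than 60 reads in every library, and each library's interval was wide.

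**Figure D2:**
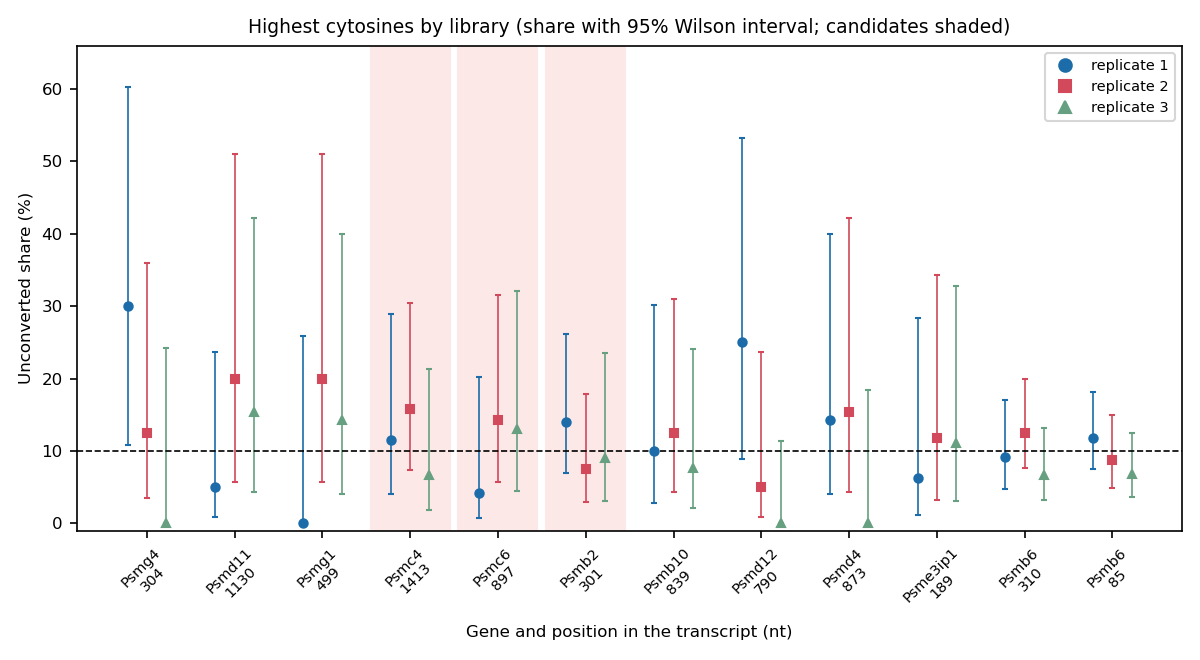
Unconverted share (%) in each library, with its 95% Wilson interval, at the 10 member cytosines with the highest mean share and the 2 cytosines past the site test just under the 10% minimum (Psmb6 310 and 85); the dashed line is the minimum and shading marks the candidates. Only Psmc4 1413, Psmc6 897 and Psmb2 301 are candidates, and the 3 highest means (Psmg4, Psmd11, Psmg1) each rest on 10 to 20 reads a library.

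Each candidate depended on 1 or 2 libraries. Psmc4 lost the call without replicate 2 (adjusted p of the exact binomial tests, 0.496), Psmc6 without replicate 2 (0.788) or replicate 3 (0.315), and Psmb2 without replicate 1 (0.174). When the largest p of the 3 libraries replaced Fisher's method in these binomial tests, no member passed, while 42 had an unadjusted p below 0.05. The count was 7 without replicate 3. The 2 members past the site test just under the level minimum were both in Psmb6. Position 310 had 8 of 87, 14 of 112 and 7 of 105 unconverted reads, or 9.45% ± 2.93. Position 85 had 17 of 144, 11 of 126 and 9 of 131, or 9.14% ± 2.49 (SD, n = 3). Both were read more deeply than any candidate, and only the level minimum kept them out.

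The other 7 of the 10 cytosines with the highest mean shares did not pass the test. They were Psmg4 304 (14.2%), Psmd11 1130 (13.5%), Psmg1 499 (11.4%), Psmb10 839 (10.1%), Psmd12 790 (10.0%), Psmd4 873 (9.89%) and Psme3ip1 189 (9.71%). Psmg4 304, the highest, had 3 of 10, 2 of 16 and 0 of 12 unconverted reads. At the median member coverage of 64, 59 and 59 reads, a count of 0 allows a share of up to 4.69%, 5.08% and 5.08% (3 counts of the total), and at the minimum of 10 reads up to 30%. Such limits, like the intervals, hold counting error alone: the libraries were amplified by PCR without molecular identifiers. Nothing above 14.2% on average was seen at any of the 9831 cytosines.

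At lower levels more cytosines departed from the library. An adjusted p below 0.05 by the exact binomial tests, at any level, was found at 91 member cytosines (0.926%) in 33 genes, against 0.499% of all testable cytosines. The median share of the 91 was 4.49%, and 29 were at 5% or above. Over all mRNAs, the 8189 cytosines that passed had a median of 4.62%, and 3608 were at 5% or above. Depth differed too, and within 6 ranges of summed depth the members were lower than the rest in 4 and higher in 2. From 30 to below 60 reads 0% of member cytosines passed against 0.0503% of the others, from 60 to below 150 0.132% against 0.155%, and from 150 to below 300 0.331% against 0.442%. From 300 to below 600 it was 1.51% against 1.15%, from 600 to below 1500 3.25% against 2.54%, and at 1500 or more 6.70% against 7.79%. In members 11 of the 91 (12.1%) had another such cytosine within 10 bases, against 29.6% over all mRNAs, so the member sites were mostly single.

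**Figure D3:**
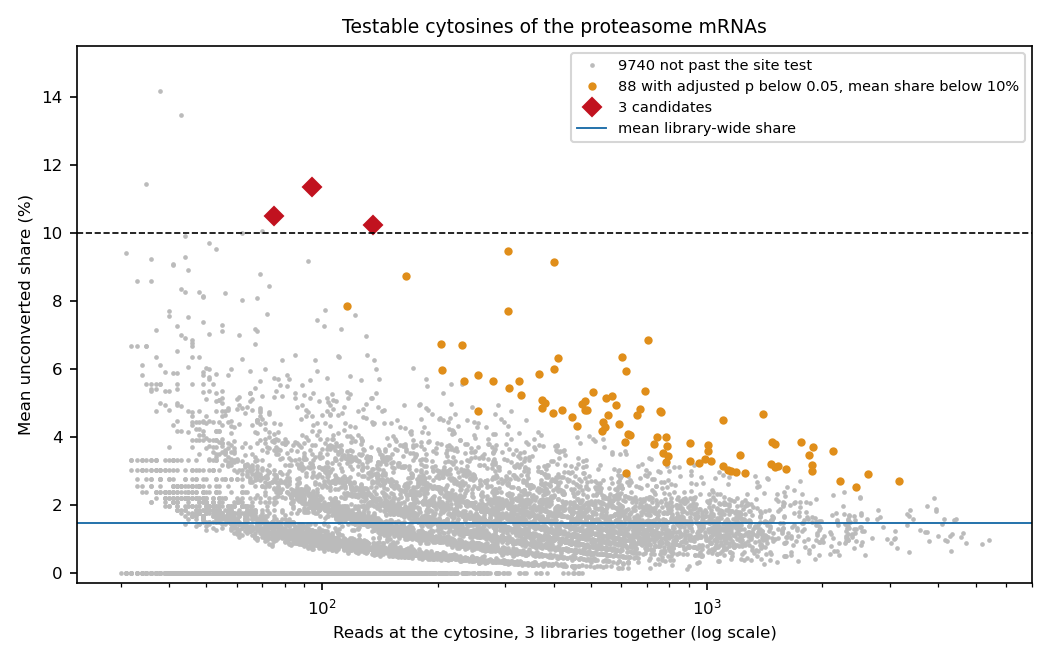
Mean unconverted share (%) against the reads of the 3 libraries together (log scale) for the 9831 testable member cytosines. The 88 orange points passed the site test below a mean share of 10%, the 3 red diamonds are the candidates, the dashed line is the 10% minimum and the blue line the mean library-wide share; the share at which a cytosine passes falls as depth grows.

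Psmd3 had the most such cytosines, 9 between positions 64 and 1772. Its highest was position 1772, with 8 of 101, 10 of 94 and 5 of 109 unconverted reads (7.72% ± 3.03, SD, n = 3). The steadiest was position 456, at 3.47% ± 0.253. The ATPases Psmc3 and Psmc5 had 7 each. Psmc5 position 1163 had 22 of 621, 26 of 633 and 22 of 636 unconverted reads (3.70% ± 0.353), and Psmc3 position 1160 had 18 of 451, 22 of 557 and 17 of 497 (3.79% ± 0.318). Psmb6 had 5, all between positions 84 and 310, and Psma3 had 3 between positions 83 and 109. The single values of Psmd3, Psmc3, Psmc5 and Psma3 were picked for print after all were seen. By role, against the 0.499% of all testable cytosines, the share was 1.40% in the constitutive beta subunits, 1.36% in the ATPases, 1.14% in the alpha subunits, 0.805% in the non-ATPase subunits, 0.781% in the tissue-specific beta subunits, 0.463% in the assembly factors and 0.254% in the activators and inhibitor. The first 3 of these roles were also the most deeply read, at 170, 103 and 103 reads per listed cytosine, and the last 2 were at 23.1 and 36.2.

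At the level of whole genes, 9 of the 42 members tested departed from their library, 3 above and 6 below. The test was limma with a trend on the log2 odds of staying unconverted, gene minus library, over genes with at least 20 testable cytosines. P-values were two-sided and adjusted by Benjamini-Hochberg over 7435 genes. Of all genes 6.81% were higher and 7.42% lower, 14.2% in either direction. In members 7.14% were higher and 14.3% lower. The median SE of the log2 odds difference was 0.046 in members and 0.090 over all genes. Members were thus measured more closely, and the part of this in their calls was not tested. The median log2 odds difference was -0.03 over members and -0.01 over all genes.

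Above the library were Psmd5, Psmb6 and Psmd3. Psmd5, an assembly chaperone of the cap, was unconverted at 1.79%, 2.20% and 1.65%, all above the libraries' 1.53%, 1.45% and 1.41%. Its log2 odds difference was 0.36 ± 0.083 (SE; limma adjusted p, 0.00279). Psmb6, the caspase-like subunit, was at 1.70%, 1.63% and 1.61%, a difference of 0.18 ± 0.034 (SE; limma adjusted p, 0.000422). Psmd3 was at 1.66%, 1.58% and 1.54%, a difference of 0.12 ± 0.023 (SE; limma adjusted p, 0.000266). Without the 5, 9 and 2 cytosines that passed the site test, the log2 odds difference was 0.08 in Psmb6, 0.04 in Psmd3 and 0.26 in Psmd5. These values have no test, and removing cytosines chosen for a high share lowers them by construction, so they do not show where the excess lay.

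Below the library were 2 alpha, 2 beta and 2 cap subunits. Psma2 was at 1.39%, 1.23% and 1.26% (log2 odds difference, -0.18; limma adjusted p, 0.00234). Psmb3 was at 1.43%, 1.27% and 1.25% (-0.16; limma adjusted p, 0.000631). The ATPase Psmc2 was at 1.41%, 1.27% and 1.27% (-0.16; limma adjusted p, 0.0195). Psmd14, the deubiquitinase of the lid, was at 1.31%, 1.32% and 1.32% (-0.15; limma adjusted p, 0.0280). Psmb1 (-0.13; limma adjusted p, 0.0317) and Psma5 (-0.12; limma adjusted p, 0.0152) completed the group. In each of the 6 the share lay below that of its own library in all 3 libraries. The size of these departures is small, since a log2 odds difference of -0.18 separates 1.29% from 1.46%.

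**Figure D4:**
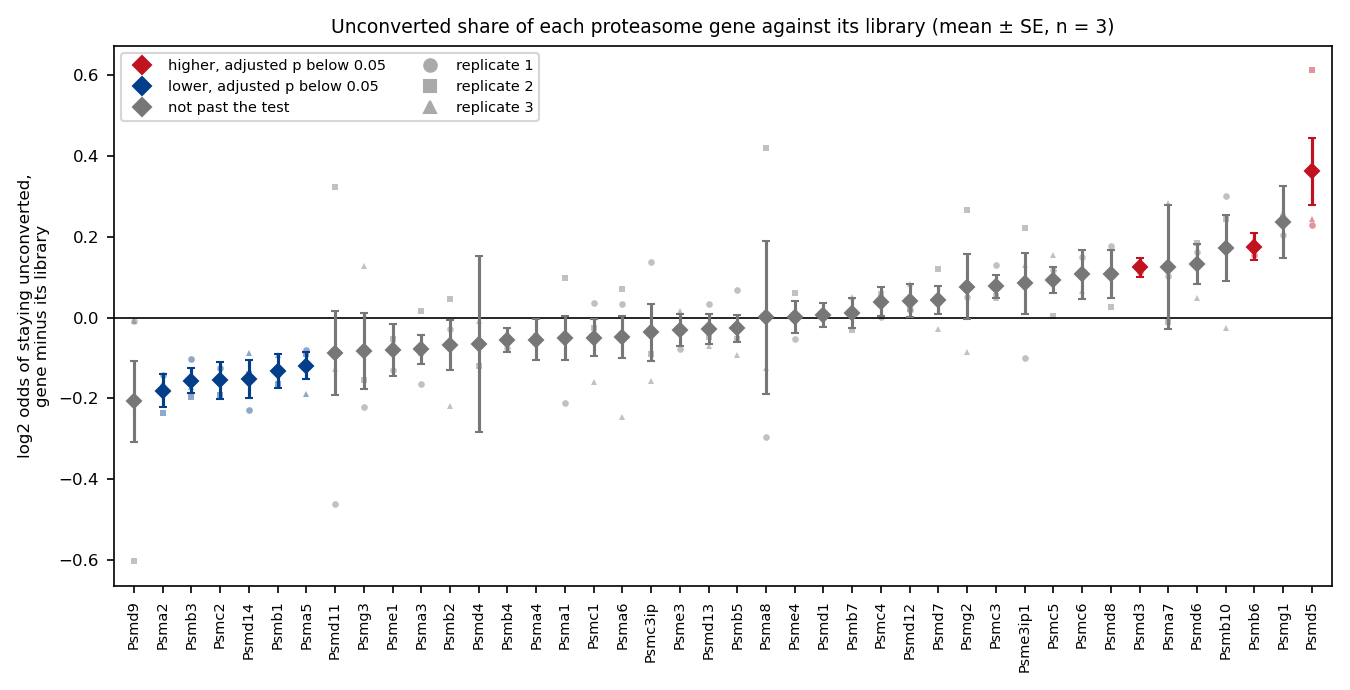
Log2 odds of staying unconverted, gene minus its library, for the 42 members with at least 20 testable cytosines; diamonds and bars are the mean and SE of limma (n = 3) and the small symbols are the libraries. Psmd5, Psmb6 and Psmd3 (red) lie above 0 and Psma2, Psmb3, Psmc2, Psmd14, Psmb1 and Psma5 (blue) below it.

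These calls depend on how limma estimates the spread. With limma without a trend no gene of the 7435 passed; 6 members had an unadjusted p below 0.05, and the adjusted p of the 9 lay between 0.204 and 0.321. With coverage as a weight in place of the trend, an alternative chosen after the data were seen, the same 9 passed. Psmb3, Psmb6 and Psmd3 kept the call without each replicate. Psmd5 and Psma2 lost it without replicate 2 (limma adjusted p, 0.130 and 0.0530), Psma5 without replicate 3 (0.205), Psmd14 without replicate 1 (0.285) or 2 (0.0996), and Psmb1 and Psmc2 without any 1 of the 3 (0.0590 to 0.178 and 0.0640 to 0.133).

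Along the transcripts, 3 of 43 members differed between the lower and upper part of their testable positions, split at the middle position by rank. Limma with a trend on the log2 odds, upper minus lower part, found 2.66% of 7513 transcripts higher in the upper part, 4.84% lower and 7.51% in either direction. Psmg1, a chaperone of core assembly, was at 1.94%, 2.07% and 2.22% in the lower part and at 1.55%, 1.25% and 1.05% in the upper. The log2 odds difference was -0.71 ± 0.195 (SE; limma adjusted p, 0.0232). Psmb6 was at 2.02%, 1.75% and 1.69% in the lower part and at 1.35%, 1.48% and 1.5% in the upper, a difference of -0.34 ± 0.080 (SE; limma adjusted p, 0.00750). All 5 of its cytosines past the site test lay in the lower part. Psme1 went the other way, at 1.27%, 1.01% and 1.08% in the lower part and 1.49%, 1.70% and 1.54% in the upper (0.50 ± 0.139, SE; limma adjusted p, 0.0257). In none of the 3 did the parts overlap across libraries. Coverage differed between the parts as well. In Psme1 it was 47.7 ± 0.795 reads per cytosine in the lower part and 67.4 ± 7.39 in the upper, and its part in the difference was not tested. The call was lost for Psmb6 without replicate 1 (limma adjusted p, 0.199), for Psme1 without replicate 2 (0.247) or 3 (0.0722) or between the first and the last of 3 equal segments (0.105), and for Psmg1 without replicate 2 (0.0607) or 3 (0.178).

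Over the members together the share was highest in the first of 4 segments of the testable positions. With the testable positions of each transcript cut into 4 segments of near-equal number, it was 1.57% ± 0.0828, 1.37% ± 0.0796, 1.42% ± 0.0635 and 1.48% ± 0.0675 from the first to the last segment (SD, n = 3). In all other transcripts it went from 1.5% ± 0.0666 in the first segment to 1.43% ± 0.0593 in the last. The first segment exceeded the second in each library, at 1.66% against 1.44%, 1.54% against 1.38% and 1.5% against 1.28%. By transcript, the first segment exceeded the second in 32 of 43 members (74.4%), against 52.5% of 7470 others, and the last exceeded the second in 28 (65.1%), against 48.5%. This pattern was noticed in the data and has no test. The first segment is not the same as the start of the transcript. In the first 48 bases of 13 genes the shares were 1.22% (CG), 0.990% (CHG) and 0.922% (CHH). Each of these lay below the library share in every library. In members 33, 12, 19 and 27 cytosines passed the site test in the 4 segments from first to last, or 1.34%, 0.492%, 0.775% and 1.11% of those testable. In the other transcripts the shares were 0.647%, 0.508%, 0.447% and 0.399%. Mean coverage in the members' segments was 116, 95.1, 110 and 110 reads, and its part in these counts was not tested.

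**Figure D5:**
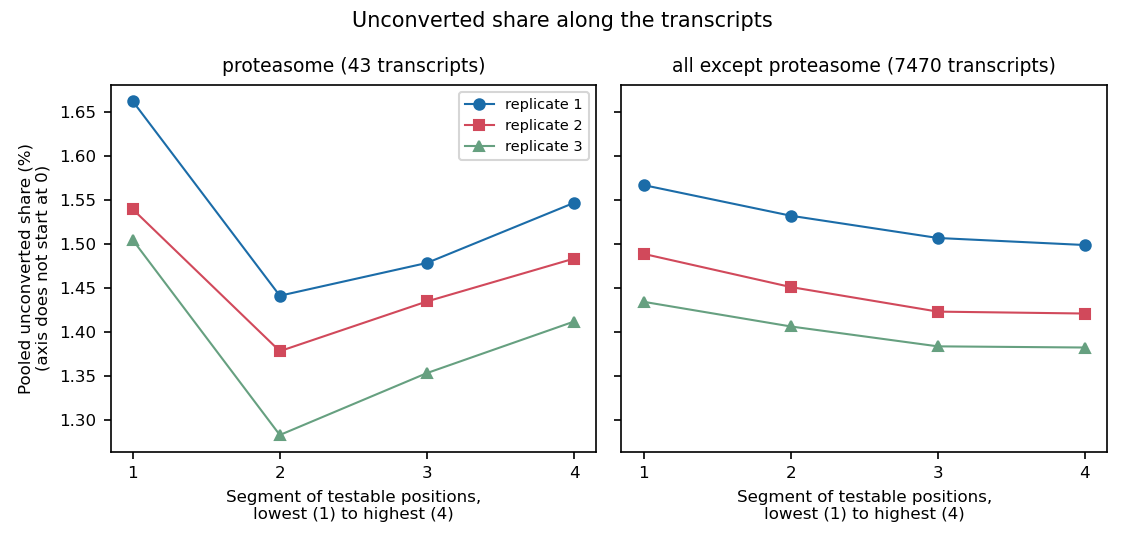
Pooled unconverted share (%, axis not starting at 0) by segment of the testable positions, from the lowest to the highest, in 43 member transcripts (left) and 7470 other transcripts (right); each line is 1 library. In members the second segment is the lowest in every library, while in the others the share declines from the first segment.

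Among other genes of the ubiquitin-proteasome pathway, candidates lay mainly in Rad23b. Of a list of 31 symbols, 29 were found; Paaf1 was not, nor was Shfm1, an older symbol of Sem1. In 26 genes with 5649 testable cytosines, 9 candidates lay in 4 genes, or 0.159% (exact 95% interval, 0.0729% to 0.302%), against 0.0473% of all testable cytosines. The interval lies above that share, but it takes cytosines as independent. Of these 6 were in Rad23b, a shuttle that carries ubiquitin-tagged proteins to the proteasome, and 5 of the 6 lay between positions 297 and 308. The highest, position 308, had 55 of 278, 52 of 238 and 35 of 228 unconverted reads (19% ± 3.32, SD, n = 3). Ubb, a polyubiquitin gene, had 16 of 17, 9 of 12 and 13 of 15 at position 369 (85.3% ± 9.64). It rests on few reads of a gene made of near-identical repeats, where the placement of reads is uncertain. Ecpas, a proteasome adaptor, had 1 at position 5684 (16.8% ± 5.47), and Ubqln4, a shuttle, 1 at position 121 (11% ± 4.29). Ecpas had no candidate without any 1 of the 3 replicates, with a coverage minimum of 20, under the beta-binomial test or against the share of its own transcript. Ubqln4 had none without replicate 2 or replicate 3. Since 6 of the 9 lie in 1 gene, this list and the proteasome mRNAs were not compared. By limma on whole genes, 2 of 22 were higher (Rad23b, 0.56, and Pomp, the maturation chaperone of the core, 0.15). Another 6 were lower, among them Adrm1, Ecpas, Rps27a, Ubb and Vcp, between -0.26 and -0.07 on the log2 odds scale. Of all genes 6.81% were higher and 7.42% lower. Pomp was named after its value was seen. No proteasome subunit mRNA held a cytosine at the level of Rad23b position 308 or Ubb position 369.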

How the data were processed

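Polyadenylated RNA of 3 samples of 1 group was converted and sequenced as paired ends, per the labels' protocols. Per the submitters' processing notes, BSMAP and genome build mm9 were used; the version, counting step and annotation were not given in the sources used here. The tables deposited by the authors list, per cytosine of a RefSeq mRNA, the coverage as a raw read count (never below 3) and the unconverted ratio as a fraction of it. Ratio times coverage was whole within 1e-06 at 100% of cytosines and was taken as the count of unconverted reads. Symbols came from RefSeq (GRCm38.p6; 14932 of 15021 transcripts matched, names only). Pseudogenes of Psma5, Psmb5, Psmb6 and Psmb7 are annotated, so their reads may be shared.

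Site tests used scipy 1.17.1 and gene and position tests limma 3.58.1 in R 4.3.3, with 0.5 reads added to both sides of the odds; both were tested on simulated data. Levels counted all listed cytosines and shares only testable ones. The library-wide share, the background of the site and gene tests, is an exception and counted all listed cytosines. Named were members with a candidate or past a gene or position test, the 10 highest cytosines, the highest and lowest of each role, the catalytic, inducible and tissue-specific subunits, activators and inhibitor, and pathway genes with a candidate or, up to 6, the largest coverage; any further name was picked with its values in view. Some genes that this rule or the marker lists select are left out of the text. Members and lists were chosen with earlier results of these data known. Alternatives changed the coverage and level minimums, the combination of p-values, the background, the filter, the reads added, the variance model and the replicates used.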

Additional observations from a re-analysis of the deposited data

How the results depend on the processing

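The 3 proteasome candidates, of 9831 testable cytosines, became 0 at a mean share of at least 20%, 29 at 5%, and 0 with the largest p of the 3 libraries. Over all 1639820 testable cytosines the candidates were 775 as reported, 87 at 20%, 3322 at 5% and 109 with the largest p. At 10% the candidates were a smaller part of the testable cytosines in members than over all mRNAs. The exact interval of the members, 0.00629% to 0.0892%, holds the 0.0473% of all testable cytosines, so no difference is read from this. At 5% the part was larger in members, and this has no test. Summed depth also differed, with a median of 182 reads in members and 91 in all. The part of depth in these counts was not tested. Leaving out 1 replicate gave 3 to 7 in members and 754 to 826 over all. The beta-binomial test kept Psmb2 and Psmc4 but not Psmc6 (adjusted p, 0.182). The 9 candidates of the other pathway genes became 1 at 20% and 24 at 5%, with Ecpas among the genes at 5%. Without 1 replicate they were 7 to 8, and none was in Ecpas whichever replicate was left out. The 9 gene calls became 5 with all listed cytosines, 14 with 5 reads added and 0 with limma without trend (6 members at an unadjusted p below 0.05), and 5 to 6 without 1 replicate. Adding 5 reads moved the median of all genes from -0.01 to 0.09 and the split of member calls from 3 higher and 6 lower to 8 and 6. The number of position calls was between 2 and 4, but the transcripts changed: Psmb6 and Psmd5 without replicate 2, Psmb6 and Psmc2 without replicate 3, and Psma2, Psmb6, Psmd4 and Psmg1 between the first and the last of 3 equal segments. The pooled share stayed between 1.43% and 1.5%. The share of coverage was 0.745% as reported, 0.805% over testable cytosines and 0.758% over those listed in all 3 libraries. No result reversed. Of the alternatives for named genes and cytosines, 311 left the call as it was, 41 lost it and 14 gained it. The cause of these changes was not tested, other than that fewer samples or cytosines entered some fits. No paired analysis was possible because the samples form a single group. At a coverage of 10 reads in 1 library a count of 0 allows a share of 30%. Weak sites in thinly read members such as Psmg4 and Psma8 could therefore be missed.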

Other observations

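The shares of single member cytosines agreed only loosely between libraries. Across the 9831 testable cytosines, which share libraries and neighbouring reads and are no independent replicates, Pearson's r between pairs of libraries was 0.104 to 0.108, and over all 1639820 testable cytosines it was 0.0915 to 0.0929. The most deeply read member cytosine, Psma3 position 552, had 1764, 1899 and 1741 reads and was unconverted at 0.964%, 0.790% and 1.21%, below the library share in each library. Of the 91 member cytosines past the site test, 38 had a p below 0.05 in each library taken alone (one-sided exact binomial test, unadjusted). Over all mRNAs this held for 4223 of the 8189 cytosines past the site test. Both sets were chosen by joining these same p-values, so the counts are no separate evidence.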
